A study of Mus musculus with 6 samples.

Results

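Intermediate filament genes of muscle, mesenchyme and neurons were followed in the mouse myoblast line C2C12 after small interfering RNA (siRNA) against Htt, the huntingtin gene. The 9 genes are Des, Vim, Nes, Synm, Nefl, Nefm, Nefh, Ina and Prph, out of 22180 genes on the arrays. They were named for what they encode, with earlier results of these data known, and the probe set that stands for each gene was chosen by its mean log2 level over the 6 arrays, the brightest being used. That choice mattered for 1 gene: Vim had a used probe set with a mean of 11.46 and another with 9.75, and the other 8 genes each had 1 probe set that lists no further gene.

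Cells were transfected with an siRNA pool against Htt on 3 arrays, called Htt siRNA, and with scramble siRNA on 3 arrays, called scramble. Both groups are C2C12 cells in standard medium, so the 2 groups share line, medium and transfection and differ by label in the siRNA alone. The labels call the first group HTT KO, while the design text describes a knockdown, and they do not say whether replicates were separate cultures, so every p-value covers only sample-to-sample spread, possibly technical. The sources used here give neither the time of harvest nor the stage of differentiation.

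Intermediate filaments are ropes of coiled-coil proteins that give cells tensile strength. Desmin and vimentin assemble into filaments by themselves, nestin and synemin join them as partners, and the neurofilament proteins, with alpha-internexin and peripherin, build the filaments of axons. Proliferating myoblasts hold vimentin and nestin, and desmin becomes the filament that ties the Z-discs of mature muscle fibres to each other and to the membrane.

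The levels are log2 values from RMA, a method that corrects background, equalises the distributions of arrays and summarises probes. The 3 Htt siRNA arrays stood at 4.49, 4.47 and 4.65 for Htt, against 5.59, 5.60 and 5.72 in the scramble arrays. Between arrays the correlation over all probe sets lay between 0.981 and 0.991. Of the myoblast markers, Myf5 stood between 7.86 and 8.70 in Htt siRNA arrays and between 7.38 and 8.72 in scramble arrays, and Cdh15, the muscle cadherin, between 7.63 and 7.83 with Htt siRNA and between 6.91 and 7.61 with scramble. Pax7, a satellite cell factor, lay between 3.12 and 3.29 with Htt siRNA and between 2.94 and 3.57 with scramble, close to the median gene mean of 2.95. Values near that median cannot be told from background here, since the table holds no detection calls.

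Muscle genes had higher values after Htt siRNA across most of the marker list. Of 14 measured myoblast and myotube markers 0 passed over all genes in limma, 12 had an unadjusted p under 0.05, all higher (5.72% of all genes), and the groups did not overlap in 11, all higher (10.1% of all genes). Their median log2 fold change was 1.33, beside 0.03 over all genes, with Myog, the factor that starts muscle differentiation, at 2.68 ± 0.44 and Actc1, the cardiac actin of early myotubes, at 2.21 ± 0.38, against -0.07 ± 0.16 for Pax7. The mean log2 level of the 14 was 6.11, 5.32 and 6.04 in Htt siRNA arrays and 4.62, 4.19 and 4.85 in scramble arrays. The part of this difference in the values of Des, Nefl and Nefm was not tested.

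The stretches of 250 bases upstream of the annotated start are shown for Des, Vim and Nes, the filament genes of the myoblast itself with the brightest probe sets. They were picked because their groups differed in overlap and their proximal promoters in motifs, so no link between motifs and groups can be read from them. The groups of Des were apart by only 0.004, and those of Vim and Nes overlapped. A link between motifs and levels was not tested. The sequences are RefSeq's, in build GRCm38.p6, all on the + strand and 5′ to 3′: Des at chr1:75360042-75360291, Vim at chr2:13574061-13574310 and Nes at chr3:87970843-87971092. RefSeq's promoter table matched 6 of the 9 genes, namely these 3 with Synm, Ina and Prph. Capitals mark matches on either strand to CANNTG, the E-box that MyoD-family factors bind, of which CAGCTG is one form, and to TATAAA, the core of the TATA box.
Des: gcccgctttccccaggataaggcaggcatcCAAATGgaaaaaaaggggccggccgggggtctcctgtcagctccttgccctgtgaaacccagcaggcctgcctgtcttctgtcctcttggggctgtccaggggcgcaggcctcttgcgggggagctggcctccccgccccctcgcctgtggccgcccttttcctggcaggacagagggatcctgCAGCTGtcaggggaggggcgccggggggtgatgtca
Vim: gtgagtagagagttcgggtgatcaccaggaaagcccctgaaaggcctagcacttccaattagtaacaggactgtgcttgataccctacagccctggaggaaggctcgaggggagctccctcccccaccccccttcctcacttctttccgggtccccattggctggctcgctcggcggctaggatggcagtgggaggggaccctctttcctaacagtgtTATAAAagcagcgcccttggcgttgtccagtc
Nes: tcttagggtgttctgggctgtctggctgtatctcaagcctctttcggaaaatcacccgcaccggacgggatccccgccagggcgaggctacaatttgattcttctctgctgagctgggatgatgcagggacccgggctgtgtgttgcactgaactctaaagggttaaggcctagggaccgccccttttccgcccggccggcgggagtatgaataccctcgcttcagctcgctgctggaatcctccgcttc
The Des stretch held 2 matches to CANNTG, and the one nearer the start, 31 bases before it, was CAGCTG. The Vim stretch held 1 match to TATAAA, 27 bases before the start, and 0 to CANNTG, and the Nes stretch held 0 matches to each motif. Among the matched genes not printed, Ina, whose groups overlapped, held 1 match to CANNTG. It was also CAGCTG, 130 bases before the start. Synm held 1 match to CANNTG and 0 to CAGCTG, and Prph 1 to TATAAA, 26 bases before the start. Over all 32851 windows of the same length, 66.2% held CANNTG, 13.0% held CAGCTG and 12.4% held TATAAA. A match is a description of the letters and not a binding site.

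Across the 9 genes, 2 neurofilament genes had markedly lower values after Htt siRNA and the muscle and mesenchymal filament genes had values near those of scramble. Nefl had 34.3% and Nefm 38.3% of the scramble level, while the estimates for the other 7 genes lay between 96.9% (Vim) and 119.7% (Synm). In limma, 0 of the 9 passed an adjusted p of 0.05 over all genes, as 0 of 22180 genes did (0.0%). At an unadjusted p under 0.05 there were 2 of 9, both lower (Nefl and Nefm), where 5.14% of all genes were lower and 5.72% higher by that measure. The groups did not overlap in 2 of 9, Des higher and Nefl lower, where 16.0% of all genes did not overlap (10.1% higher and 5.91% lower). Of the 9 genes 6 had log2 fold changes above 0 and 3 below, with a median of 0.09, beside a median of 0.03 over all genes.

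**Figure D1:**
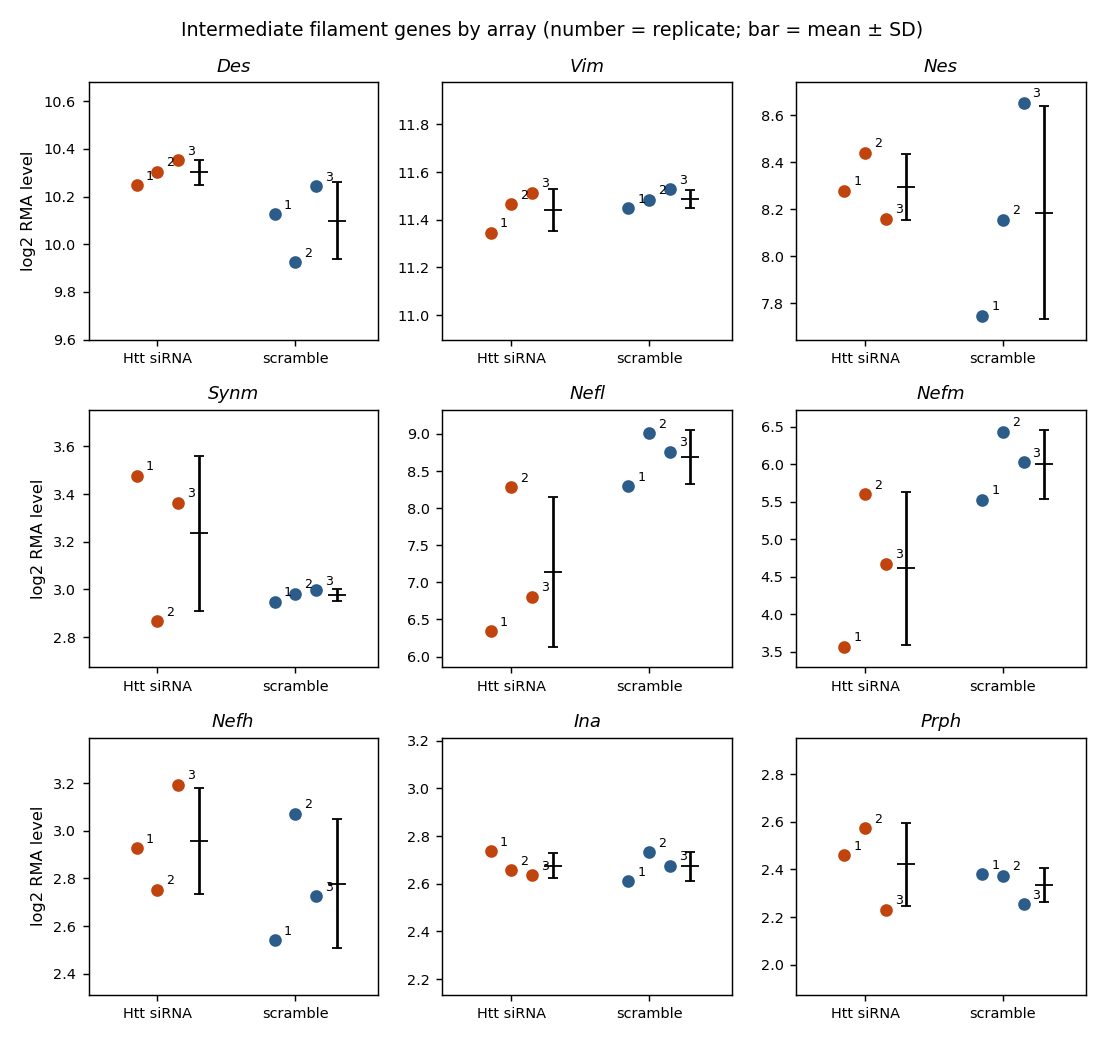
Log2 RMA level of each intermediate filament gene (y axes, each at least 1 log2 unit high and set per gene) in the 3 Htt siRNA arrays (left in each panel) and the 3 scramble arrays (right); points are arrays numbered by replicate and bars are mean ± SD. Nefl and Nefm sit lower in Htt siRNA arrays 1 and 3 than in any scramble array, while Htt siRNA array 2 lies next to scramble array 1.

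Desmin, the muscle-specific filament protein, was measured at 10.25, 10.31 and 10.35 in the Htt siRNA arrays and at 10.13, 9.92 and 10.24 in the scramble arrays. Every Htt siRNA array lay above every scramble array, but the nearest pair was only 0.004 apart. The log2 fold change of Des was 0.20 ± 0.10 (limma, moderated SE, n = 3 per group; 95% interval -0.04 to 0.44; adjusted p = 0.517), a level of 115% of scramble. With 1 array left out it ran from 0.12 (without scramble replicate 2) to 0.28 (without scramble replicate 3). The scramble arrays spanned 0.32 and the Htt siRNA arrays 0.11, so the spread of Des lay mostly within scramble.

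Vimentin, the filament protein of mesenchymal cells and of dividing myoblasts, stood at 11.35, 11.47 and 11.51 with Htt siRNA and at 11.45, 11.48 and 11.53 with scramble. The ranges overlapped, and the lowest of the 6 was Htt siRNA array 1. The Vim log2 fold change was -0.05 ± 0.09 (95% interval -0.24 to 0.15), which for this probe set corresponds to 84.5% to 111% of scramble. The dimmer Vim probe set gave a difference of -0.04. The mean of both probe sets gave -0.04 ± 0.14, a wider spread.

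Nestin, a filament protein of progenitor cells that needs a partner such as vimentin or desmin, was at 8.28, 8.44 and 8.16 in Htt siRNA arrays, against 7.75, 8.15 and 8.65 in scramble arrays. The scramble arrays enclosed all 3 Htt siRNA values and spanned 0.91, against 0.28 among Htt siRNA arrays. The Nes log2 fold change of 0.11 ± 0.21 (95% interval -0.38 to 0.60) therefore leaves a wide range, and its sign turned to -0.11 without scramble replicate 1.

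Synemin, a large partner that links desmin filaments to the membrane skeleton, was dim, with a mean of 3.11 over the 6 arrays, close to the median gene mean, so its values cannot be told from background. Synm read 3.48, 2.87 and 3.36 in Htt siRNA arrays and 2.95, 2.98 and 3.00 in scramble arrays. Htt siRNA arrays 1 and 3 were the highest of the 6 and array 2 the lowest, so the groups overlapped. The log2 fold change was 0.26 ± 0.16 (95% interval -0.10 to 0.62; limma adjusted p = 0.584). Without Htt siRNA replicate 2 it was 0.44, with an adjusted p = 0.0659 in limma.

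Because desmin copolymerises with vimentin and nestin, its level was also read against each of them within an array, which removes any scaling that an array's genes share. The log2 difference Des minus Vim was -1.10, -1.16 and -1.16 in Htt siRNA arrays and -1.32, -1.56 and -1.28 in scramble arrays. The difference between these 2 probe sets says nothing on how the 2 transcripts compare in amount, but its shift between groups can be read. That shift was 0.25 towards desmin with no overlap (mean ± SD of -1.14 ± 0.04 with Htt siRNA and -1.39 ± 0.15 with scramble), and the two-sided exact permutation test gave p = 0.1, the lowest that 3 against 3 arrays can reach. For Des minus Nes the means were 2.01 ± 0.17 with Htt siRNA and 1.91 ± 0.41 with scramble (SD), the arrays overlapped, and the same exact permutation test gave p = 0.7. Adjusted over these 2 comparisons the permutation p-values were 0.2 and 0.7. With 1 array left out the Des minus Vim shift ran from 0.16 (without scramble replicate 2) to 0.30 (without scramble replicate 3).

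The light neurofilament subunit, the core protein on which axonal neurofilaments are built, carried the largest difference of the 9 genes. Nefl stood at 6.34, 8.28 and 6.81 in Htt siRNA arrays, against 8.29, 9.01 and 8.76 in scramble arrays. Htt siRNA arrays 1 and 3 were far below the rest, whereas array 2 came within 0.01 of scramble array 1, so the groups were separate by a narrow gap. The mean was 7.14 ± 1.01 with Htt siRNA and 8.69 ± 0.36 with scramble (SD, n = 3). Taken array by array, Htt siRNA replicates 1, 2 and 3 held 19.7%, 75.4% and 27.1% of the scramble mean. The log2 fold change was -1.54 ± 0.45 (95% interval -2.60 to -0.49; limma adjusted p = 0.364), a 2.92-fold lower level, where 0.338% of all genes were at least 2-fold lower.

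The medium subunit, which co-assembles with the light one and carries a long phosphorylated tail, was lowest and highest in the same Htt siRNA arrays as the light one. Nefm measured 3.56, 5.60 and 4.67 with Htt siRNA and 5.53, 6.44 and 6.03 with scramble. Htt siRNA array 2 was above scramble array 1, so the groups overlapped by this 1 array. The mean was 4.61 ± 1.02 with Htt siRNA and 5.998 ± 0.46 with scramble (SD, n = 3), and replicates 1, 2 and 3 held 18.5%, 76.1% and 39.9% of the scramble mean. The log2 fold change of Nefm was -1.39 ± 0.47 (95% interval -2.48 to -0.29; limma adjusted p = 0.398), or 2.61-fold lower.

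Both neurofilament values rested strongly on which Htt siRNA arrays were used. Without Htt siRNA replicate 2 the log2 fold changes were -2.11 for Nefl (adjusted p = 0.00807 in limma) and -1.88 for Nefm (adjusted p = 0.0443), and both then passed, in a fit that called 540 of 22180 genes (2.43%), 423 of them lower (1.91%) and 117 higher (0.528%). Without Htt siRNA replicate 1 they were -1.14 and -0.86 and neither passed. Over the 6 fits that each left out 1 array, Nefl stayed between -2.11 and -1.14 and Nefm between -1.88 and -0.86.

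**Figure D2:**
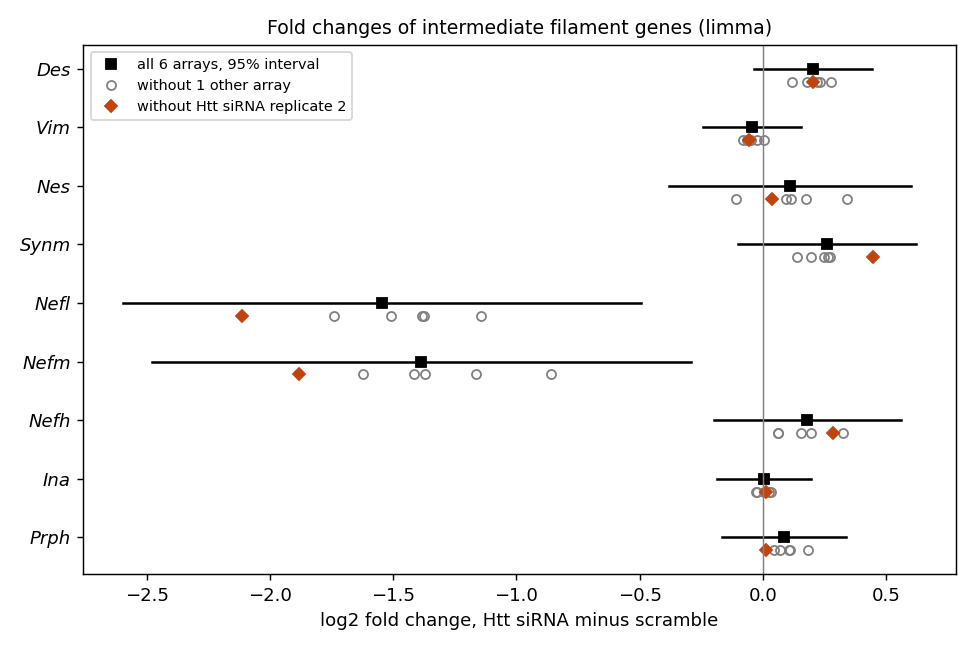
Log2 fold change of each gene, Htt siRNA minus scramble (x axis), with the limma 95% interval (squares and lines, all 6 arrays) and the value when 1 array is left out (open circles; the red diamond is the fit without Htt siRNA replicate 2). Only the intervals of Nefl and Nefm lie wholly below 0, and the diamonds of these 2 genes lie farthest left, at -2.11 and -1.88.

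The remaining neuronal filament genes were at the level of background. The heavy neurofilament gene Nefh stood at 2.93, 2.75 and 3.19 in Htt siRNA arrays and at 2.54, 3.07 and 2.72 in scramble arrays. Ina, which encodes alpha-internexin, ran from 2.64 to 2.74 with Htt siRNA and from 2.61 to 2.73 with scramble. Prph, the gene of peripherin, the filament protein of peripheral neurons, ran from 2.23 to 2.57 with Htt siRNA and from 2.25 to 2.38 with scramble. The groups overlapped in all 3 genes, whose means over the 6 arrays (2.87, 2.67 and 2.38) lay below the median gene mean. Their log2 fold changes were 0.18 ± 0.16 for Nefh, 0.00 ± 0.08 for Ina and 0.09 ± 0.11 for Prph, and since RMA compresses dim signals a change in them may not have been visible.

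Nefl and Nefm are neighbours in the genome: in RefSeq's table each is the next protein-coding gene to the other, with the pseudogene Gm19216 between them, and the long noncoding RNA gene A230070E04Rik overlaps Nefm. Over the 6 arrays their levels correlated with Pearson r = 0.97, a description over arrays that share their groups and their normalization. No pair among the other 7 genes reached that value. Synm ran opposite to both (r = -0.92 with Nefl and -0.87 with Nefm), though it lay near the median gene mean, and Des less so (r = -0.59 and -0.55).

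The 3 genes most like Nefl over the 6 arrays, among genes above the median level, were Strip2 (r = 0.9997), Mcm7 (r = 0.999), a subunit of the replicative helicase, and Brca2 (r = 0.9985), a protein of recombinational DNA repair. Those most like Nefm were Gins2 (r = 0.9986), a replication factor, Spc24 (r = 0.997), a kinetochore protein, and Cdc20 (r = 0.996), an activator of the anaphase-promoting complex. Of 11089 genes compared, 361 correlated above 0.95 with Nefl and 205 with Nefm, against 70 with Des, 44 with Synm and at most 18 with each of the other genes, so the first few are the top of a long list. For Mcm7 the levels were 6.15, 7.38 and 6.45 with Htt siRNA and 7.30, 7.77 and 7.60 with scramble. As in Nefl, arrays 1 and 3 of Htt siRNA were low and array 2 lay close to scramble array 1.

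Other measures were set beside the neurofilament values, and not all of them split the arrays alike. The mean of 19 measured genes of the unfolded protein and integrated stress response, taken relative to its 6-array mean, was 0.78, -1.16 and 0.80 in Htt siRNA arrays and 0.90, -0.84 and -0.48 in scramble arrays. Htt siRNA array 2, the one with the most neurofilament RNA in its group, thus had the lowest stress level of the 6, and scramble array 1, with the lowest Nefl in its group, the highest. Htt siRNA array 2 and scramble array 1 lay at opposite ends of the stress list and were close in Nefl, at 8.28 and 8.29. Myog ran the other way from Nefl, with 7.73, 6.22 and 7.71 in Htt siRNA arrays and 4.53, 3.97 and 5.11 in scramble arrays (r = -0.92 over the 6 arrays). The part of the stress genes, of cell division genes and of differentiation in the neurofilament values was not tested. In RNA from whole cultures, fewer cells that hold a transcript and less of it per cell cannot be told apart.

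**Figure D3:**
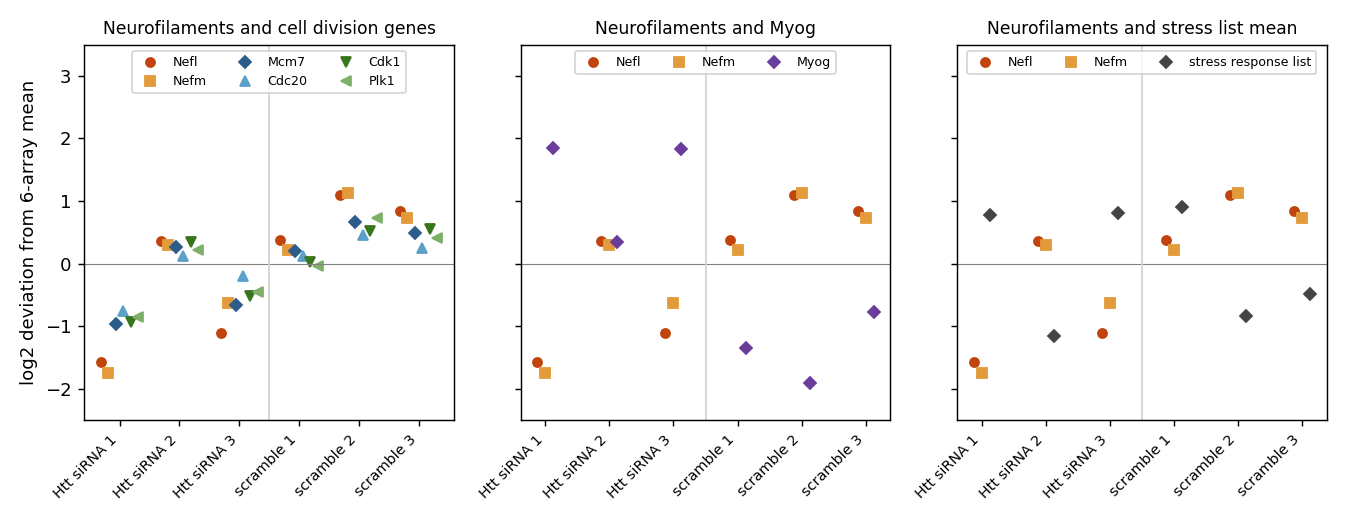
Log2 deviation from the 6-array mean (y axis) in the 3 Htt siRNA and then the 3 scramble arrays (x axis) for Nefl and Nefm beside 4 cell division genes (left), Myog (middle) and the mean of the stress response list (right). Nefl, Nefm and the 4 cell division genes are lowest in Htt siRNA array 1, next lowest in array 3 and highest in scramble array 2 or 3, Myog is highest in Htt siRNA arrays 1 and 3, and the stress list is high in those arrays and in scramble array 1.

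The patterns of the other genes were matched as well. Closest to Des were Spon2, a secreted matrix protein (r = 0.995), Cdh15, the muscle cadherin (r = 0.99), and AI837181 (r = 0.99). Closest to Vim were Sap30, Zkscan7 and Zfp169 (r from 0.98 to 0.99), and to Nes were Sf3b5, Pip4k2b and Tcf3, an E-protein partner of MyoD (r = 0.98 each). Synm was closest to Mir187, Dgkh and Dnm2 (r = 0.99 each). For the dim genes the nearest were Zfp661, Tceal8 and Cdyl2 to Nefh, Zdhhc7, Camsap1 and Smo to Ina, and Ywhab, Prcp and Cd109 to Prph, with r between 0.95 and 0.99. Cdh15 was measured at 7.63, 7.63 and 7.83 with Htt siRNA and at 7.36, 6.91 and 7.61 with scramble, and like Des it dipped most in scramble array 2.

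Among 5 other measured genes of the intermediate filament family, 0 passed over all genes, 3 had log2 fold changes above 0 and 2 below, with a median of 0.11. Iffo1, which encodes a protein of that family, was the only one of the 5 whose groups did not overlap (16.0% of all genes), at 5.42, 5.07 and 5.23 in Htt siRNA arrays and 4.81, 4.04 and 4.42 in scramble arrays. All its Htt siRNA values were above those of scramble (log2 fold change 0.81 ± 0.19, limma adjusted p = 0.299). Its relative Iffo2 had a value of -0.11 ± 0.12, and Gfap, the filament gene of astrocytes (named after its values were seen), averaged 2.83 with Htt siRNA and 2.87 with scramble, below the median gene mean.

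Of 13 measured keratins, the filament proteins of epithelia, 0 passed over all genes and 5 were above the median level. Krt80 stood at 7.68, 7.49 and 7.81 with Htt siRNA and 7.32, 6.99 and 7.43 with scramble (log2 fold change 0.41 ± 0.14, limma adjusted p = 0.395). The groups did not overlap in 5 of the 13, where 16.0% of all genes did not overlap, with Krt80 and Krt20 (named after its values were seen) higher and Krt13, Krt14 and Krt19 lower. Krt20 averaged 2.15 over the 6 arrays, below the median gene mean, so its values cannot be told from background, and its groups were 0.018 apart. Krt13 averaged 3.28, near that median. Krt13 was at 2.66, 3.30 and 2.90 with Htt siRNA and 3.72, 3.45 and 3.64 with scramble (-0.65 ± 0.17), and Krt14 at 3.65, 3.21 and 3.39 with Htt siRNA and 4.30, 3.70 and 3.83 with scramble (-0.53 ± 0.18). Krt19, which pairs with Krt8 at the costameres of muscle and is added here after its values were seen, was at 4.34, 4.67 and 4.60 with Htt siRNA and 5.05, 4.77 and 5.04 with scramble. The median of the keratin fold changes was 0.04.

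Of 11 measured lamin and nuclear envelope genes, 0 passed and the groups did not overlap in 1 (16.0% of all genes), Sun1, a linker of nucleus and cytoskeleton (log2 fold change 0.26 ± 0.09). Lamin B1 gave Lmnb1 levels of 6.51, 7.32 and 6.12 with Htt siRNA and 6.76, 7.68 and 7.34 with scramble, overlapping (-0.61 ± 0.33, limma adjusted p = 0.544). The lamin B receptor gene Lbr had -0.56 ± 0.23 and Sun2 0.18 ± 0.13. Lmna, which encodes the A-type lamins and is also named after its values were seen, averaged 8.34 with Htt siRNA and 8.38 with scramble.

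The plakins, giant proteins that tie intermediate filaments to other structures, had small fold changes of both signs. Of 6 measured, 0 passed, with Dst at 0.17 ± 0.16, Plec (plectin, the linker of desmin at Z-discs) at 0.15 ± 0.12, Ppl at -0.15 ± 0.11 and Macf1 at -0.08 ± 0.11 on the log2 fold change scale. Of 11 partners and quality-control genes of desmin, 0 passed and the median was -0.02. The groups were apart in 2 of the 11, 1 each way, where 16.0% of all genes did not overlap. Dtna, which encodes alpha-dystrobrevin and is named after its values were seen, had 0.29 ± 0.12 with no overlap. Trim32, a ubiquitin ligase that acts on desmin, had -0.23 ± 0.09 with no overlap, and Hspb1, a small heat shock protein, -0.18 ± 0.12. Flnc, the muscle filamin, had 0.43 ± 0.19 and Mtm1, myotubularin, 0.49 ± 0.38, both with overlap. Mtm1 was highest in Htt siRNA arrays 1 and 3 and scramble array 1, at 4.55, 4.03 and 4.26.

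Kinases that phosphorylate intermediate filaments, mostly to loosen them in mitosis, and phosphatase subunits made up a list with 11 measured genes. In limma, 0 passed over all genes, and 3 had an unadjusted p under 0.05, all lower, where 5.14% of all genes were lower by that measure: Aurkb, Cdk1 and Plk1, the last named after its values were seen. Cdk1, the mitotic kinase of vimentin and nestin, read 6.68, 7.97 and 7.10 with Htt siRNA and 7.65, 8.14 and 8.17 with scramble (log2 fold change -0.73 ± 0.31, limma adjusted p = 0.449). Aurkb, which acts at the cleavage furrow, had -0.82 ± 0.35. These 3 kinases correlated with Nefl over the 6 arrays with r = 0.96 (Aurkb), 0.98 (Cdk1) and 0.97 (Plk1). The 3 were named for lower values after Htt siRNA, and Nefl was lower too, so high r values follow in part from that choice. Higher values were found for Cdk5r1, the activator of the neurofilament kinase Cdk5 (0.34 ± 0.16), and for Cdk5 itself (0.17 ± 0.12). The groups overlapped in all 11 genes of this list, Aurkb, Cdk1 and Plk1 among them.

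Genes of axons and neurons other than the neurofilaments had small fold changes. Of 18 measured, 0 passed and 8 were above the median gene mean, so a change in the dim ones may not have been visible. Log2 fold changes were above 0 in 14 and below 0 in 4, where 12919 of all 22180 genes were above 0, and the median was 0.08. The groups did not overlap in 2 of the 18, Map2 and Syt1, both higher (10.1% of all genes). Syt1, named after its values were seen, averaged 2.80, below the median gene mean. Its lowest Htt siRNA value and highest scramble value were both 2.7812 after rounding, so its groups were hardly apart. Stmn2, a tubulin-binding protein of growing axons, stood at 9.38, 9.57 and 9.45 with Htt siRNA and 9.32, 9.29 and 9.40 with scramble (0.13 ± 0.09). Map2, the dendritic microtubule protein, had 0.31 ± 0.13 with no overlap between groups, Tubb3, the neuronal tubulin, -0.09 ± 0.15, and Uchl1, a neuronal ubiquitin hydrolase, -0.05 ± 0.11. The lowest value of the 18 was that of Tubb3, against -1.54 for Nefl.

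Markers of other cell types were read in the same arrays. Of 5 neuron markers, Rbfox3 alone had a mean above the median gene mean, and Snap25 lay between 2.75 and 3.04 with Htt siRNA and between 2.63 and 2.91 with scramble. Their summed linear level was 31.5 to 40.0 with Htt siRNA and 32.7 to 35.8 with scramble. The summed linear levels of the Schwann cell markers were 15.1 to 15.6 with Htt siRNA and 13.5 to 14.3 with scramble (0 of 3 above the median gene mean). Endothelial markers summed to 19.8 to 20.8 with Htt siRNA and 18.3 to 19.6 with scramble (0 of 4 above), and adipocyte markers to 23.6 to 26.5 with Htt siRNA and 20.7 to 22.7 with scramble (0 of 4 above). For macrophage markers the sums were 30.3 to 32.8 with Htt siRNA and 34.0 to 38.6 with scramble (2 of 4 above), and for epithelial markers 24.2 to 27.1 with Htt siRNA and 24.0 to 26.3 with scramble (1 of 4 above). Of the macrophage markers, Cd68 alone was lower, with a log2 fold change of -0.39 ± 0.14 and no overlap (5.91% of all genes lower). Csf1r had 0.14 ± 0.14, Adgre1 0.03 ± 0.09 and Ptprc 0.00 ± 0.09, all with overlap. Fibroblast markers, several of which myoblasts also express, summed to 930 to 1245 with Htt siRNA and 607 to 810 with scramble, with 4 of 6 above the median gene mean. Dcn had a log2 fold change of 1.69 ± 0.30 and Col1a1 of 1.17 ± 0.23, against -0.26 ± 0.11 for Pdgfra. The groups of the 6 were apart in 3 that were higher (10.1% of all genes) and in 1 that was lower (5.91%). The part of these markers in the filament values was not tested.

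**Figure D4:**
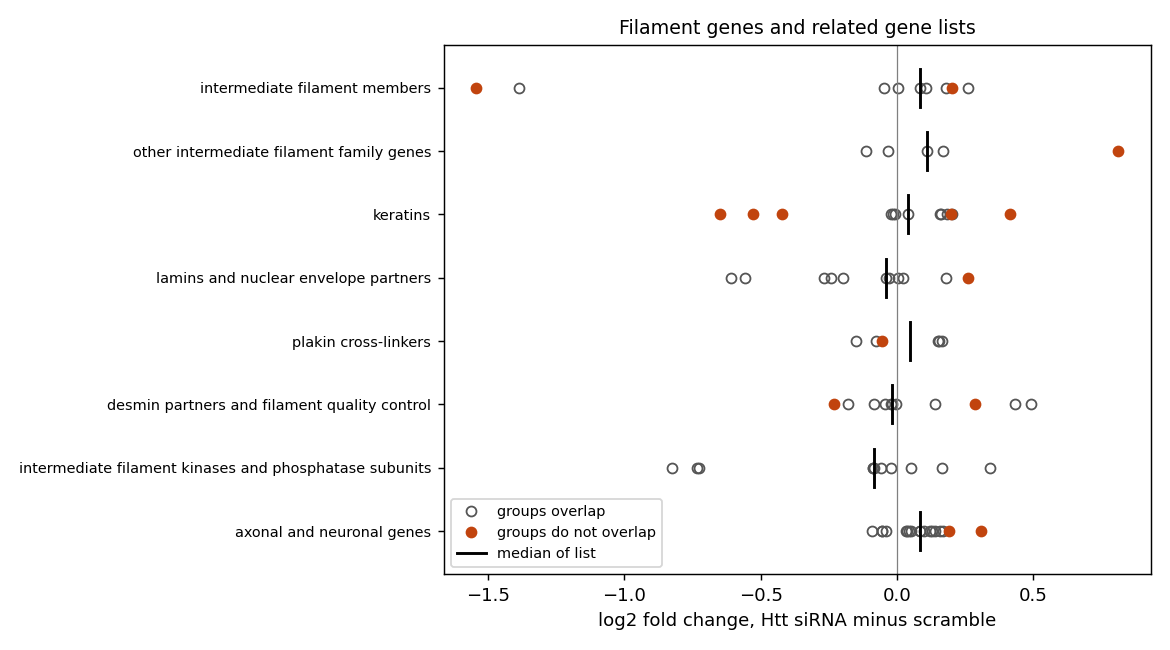
Log2 fold change, Htt siRNA minus scramble (x axis), of each measured gene in the 9 intermediate filament genes and 7 related lists (rows); filled points are genes whose groups do not overlap, open points genes whose groups overlap, and black bars the medians. Nefl and Nefm, at -1.54 and -1.39, lie farther from 0 than every gene of the related lists, of which Aurkb (-0.82) and Iffo1 (0.81) come next.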

How the data were processed

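Expression was measured on 6 Affymetrix arrays, 3 per group. The authors deposited log2 expression values for 41345 probe sets; per the submitters' processing notes these come from RMA and the affy package, with no version. The genome build is not given in the sources used here. RMA compresses dim signals, and its quantile step hides changes in total RNA. The number of arrays limits the precision.

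Platform annotation gave 1 symbol to 23521 probe sets and several to 1814, and 16010 were unnamed here; the brightest single-symbol probe set stood for each of 22180 genes. Groups were compared with limma 3.58.1 in R 4.3.3 (lmFit, eBayes, group only, two-sided), with Benjamini-Hochberg adjustment over all genes at 0.05, after a check on data with known differences. Values after ± are moderated SEs unless marked SD. Exact permutation tests used scipy 1.17.1.

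The genes and lists were chosen with earlier results of these data known. Named are all 9 genes, Htt, the 3 genes nearest to each by Pearson r, and from each list up to 2 members per direction with the largest fold change above the median level; others are marked or are defining markers. In each of 13 alternatives 1 choice was changed: an array left out (6), median centring, repeated quantile normalization, replicate block, mean of probe sets, a filter on dim genes, array weights and a mean-variance trend.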

Additional observations from a re-analysis of the deposited data

How the results depend on the processing

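The number of genes past the threshold was 0 of 22180 with all arrays and 0 to 540 when 1 array was left out, the highest being without Htt siRNA replicate 2, while dropping scramble replicate 1 gave 1. It was 3 after median centring, 3 after repeated quantile normalization, 3 with the filter on dim genes, 1 with array weights and 2 with the mean-variance trend. Of the 9 filament genes, 0 to 2 passed when 1 array was left out, the 2 being Nefl and Nefm without Htt siRNA replicate 2, and 0 in the other alternatives. The groups were apart in 2 to 4 genes when 1 array was left out, with 4 (Des, Synm, Nefl and Nefm) without Htt siRNA replicate 2, where 33.0% of all genes were apart, against 24.1% to 27.8% when any other single array was dropped. The filter on dim genes removed Nefh, Ina and Prph. The sign turned for values close to 0: Ina gave -0.0279 after median centring and -0.0313 after repeated quantile normalization. With 1 array left out, Ina ran from -0.0275 (scramble replicate 1) to 0.0332, with -0.0265 when Htt siRNA replicate 1 was dropped, Vim from -0.0816 to 0.0027 (Htt siRNA replicate 1), Nes from -0.11 (scramble replicate 1) to 0.34, and Des relative to Nes from -0.065 (scramble replicate 3) to 0.33. The cause was not tested. Nefl, Nefm, Des, Synm, Nefh and Prph kept their sign under every alternative run for them.

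Same-numbered arrays did not deviate together throughout (r = 0.35, 0.36 and 0.01 across genes for replicates 1, 2 and 3). Differently numbered arrays gave r from -0.43 (Htt siRNA 2 with scramble 1) to 0.22 (Htt siRNA 3 with scramble 1). Replicates 1 and 2 thus had their highest r with their own number, and replicate 3 did not. The main fit did not pair the arrays, and whether the numbers mark pairs was not tested. With the replicate number as a block, 98 genes passed, and Nefl and Nefm had limma adjusted p-values of 0.0589 and 0.0504. The SEs of Nefl and Nefm were 0.24 and 0.20 with the block, beside 0.45 and 0.47 in the main fit. Under the block Des relative to Vim was 0.25 and Des relative to Nes 0.10.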

Other observations

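Probe sets that the platform annotation assigns to a filament gene together with another gene were left out above and are given here as values. The probe set of Nefm and A230070E04Rik stood at 3.11, 3.37 and 2.70 with Htt siRNA and at 3.06, 3.74 and 3.57 with scramble, a difference of -0.39 with overlapping groups. The probe set of Des and Gm15179 stood at 2.34, 2.48 and 2.82 with Htt siRNA and at 2.10, 2.53 and 2.43 with scramble, a difference of 0.19, and its values lay below the median gene mean.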
